A study of Mus musculus with 24 samples.

Results

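The genes described here encode the ribosome assembly machinery: subunits and an activator of RNA polymerase I, the proteins of the small nucleolar ribonucleoprotein particles (snoRNPs), the processing factors of both ribosomal subunits, the abundant nucleolar proteins, and the transcription factor Myc. They were taken by symbol from a list of 43 genes. The rule itself used no measured value, but the list was drawn up with earlier results of these data known. All 43 were found among the 55421 genes of the expression tables, and all 43 passed the filter on low counts, which kept 13847 genes.

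Polyadenylated RNA was sequenced from hepatocytes, isolated by 2-step liver perfusion from 24 male C57BL/6J mice. The 8 ND+veh animals received vehicle, the encapsulating polymer without drug, from 4 months of age. They were kept on a normal diet, also over the 9 weeks from 18 months of age. The 7 HFD+veh animals received vehicle from 4 months of age and were moved at 18 months to a high-fat diet (60% of calories from fat) for 9 weeks. The 9 HFD+eRapa animals followed the same diet schedule with encapsulated rapamycin at 42 ppm, given from 4 months of age, so that the drug preceded the high-fat diet by more than a year. No group received rapamycin on the normal diet, so the effect of the drug on that diet was not measured. HFD+eRapa and HFD+veh shared the diet and differed in the drug. HFD+eRapa and ND+veh differed in both, and drug and diet could not be separated in that comparison. The comparisons ask how the diet changed the hepatocyte transcriptome in old animals and how it differed when rapamycin was present.

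Ribosomes are built in the nucleolus. RNA polymerase I transcribes the long ribosomal RNA precursor, snoRNPs guide the methylation and pseudouridylation of that precursor, and assembly factors fold and cut it into the small and the large subunit. Growth signals through mTORC1, the kinase complex that rapamycin inhibits, and through Myc are known to raise this whole programme, which is among the most costly of a cell. The libraries were made from polyadenylated RNA, so the values below are the mRNA levels of the machinery, and ribosomal RNA itself was not measured here.

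Myc binds DNA with its partner Max at the E-box CACGTG, and many ribosome biogenesis promoters carry it. In RefSeq promoter windows (GRCm38.p6, from 250 bases before the start to 50 after it), 36 of the 43 genes had a window, and 8 of these 36 genes (22.2%) held CACGTG, a palindrome that reads the same on both strands. The share was 8.1% of all 27025 genes with a window and 7.2% of all 32851 windows. The looser motif CANNTG, which contains every CACGTG, was held by 69.4% of the genes described here and by 75.0% of all genes. In 2 of the 8, Nop2 and Utp18, the first CACGTG lay before the start, at positions -60 and -20. In the other 6 it lay at or after the start, and those genes (Wdr43, Mybbp1a, Utp20, Pes1, Tsr1 and Ltv1) are outside the naming rule and were named after their values were seen. The stretches around the upstream E-boxes are shown as the examples of the motif in these promoters, and no binding of Myc was measured. Capitals mark CACGTG, and both are written 5′ to 3′ on the strand of the gene. Nop2 lies on the plus strand at chr6:125131796-125131855, and Utp18 on the minus strand at chr11:93885754-93885813, where the last 13 bases lie after the start.
Nop2: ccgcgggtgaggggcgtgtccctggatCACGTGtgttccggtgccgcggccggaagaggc
Utp18: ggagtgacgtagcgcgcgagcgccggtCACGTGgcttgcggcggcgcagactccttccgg
A match is a description of these letters and not a measured binding site.

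Library depth ran from 17.7 to 25.9 M counts (M, 1000000). Of the 12 listed hepatocyte markers 11 were measured, and none of the 11 was absent. Their summed level ran from 85000 to 163000 counts per M (CPM) in ND+veh and from 122000 to 158000 in HFD+veh, with a median of 139000 in both, and from 69800 to 138000 in HFD+eRapa, with a lower median of 111000. By gene, log2 fold changes ran from -1.93 to 0.81 in HFD+veh against ND+veh. There 2 of 11 were lower at an edgeR adjusted p under 0.05 (18.2%, beside 9.86% of all genes) and 0 higher. In HFD+eRapa against HFD+veh they ran from -0.52 to 2.04, with 2 higher (18.2%, beside 10.9%) and 0 lower. Markers of other liver cells differed between the groups. The summed level of 12 macrophage markers ran from 52.0 to 1520 CPM in ND+veh, with a median of 279, from 174 to 6340 in HFD+veh, with a median of 3250, and from 19.3 to 1040 in HFD+eRapa, with a median of 251. The 12 proliferation markers had a summed median of 61.5 CPM in ND+veh (from 33.1 to 213), 151 in HFD+veh (from 47.7 to 554) and 86.3 in HFD+eRapa (from 48.4 to 117). All 12 had positive estimates in HFD+veh against ND+veh (median log2 fold change 1.1), with 4 called higher (33.3%, beside 16.0% of all genes). All 12 had negative estimates in HFD+eRapa against HFD+veh (median -1.12), with 3 called lower (25%, beside 21.1%). The part of the proliferation markers in the results below was not tested. No marker gene of any list was at 0 in all libraries, and Ly6g, which marks neutrophils, was at 0 in every ND+veh and HFD+eRapa library. Libraries also differed in how expression followed transcript GC content. Spearman's rho between a library's deviation from the gene means and GC, over 13833 genes, was -0.44 in HFD+veh replicate 6, -0.48 in HFD+eRapa replicate 2 and -0.32 in HFD+eRapa replicate 4, and between -0.14 and 0.29 in the other 21 libraries. In bulk libraries fewer cells of a type and less RNA per cell cannot be told apart.

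The machinery was expressed at very unequal levels. Per length, as the median over all 24 animals of fragments per kilobase and per M mapped fragments (FPKM), the nucleolar chaperone Npm1 stood highest at a level of 68.5. It was followed by Ncl (nucleolin, which binds the ribosomal RNA precursor) at 31.3 and by Nop10, the smallest core protein of the box H/ACA snoRNPs, at 31.2. Nhp2, of the same particles, was at 20.5 FPKM and Fbl (fibrillarin, the methyltransferase of the box C/D snoRNPs) at 20.2. At the other end stood Noc3l at 1.76, Rrp12 at 1.67, Myc at 1.35 and Rrp1b at 1.02 FPKM. The subunits of RNA polymerase I differed among themselves. Polr1c, which is shared with RNA polymerase III, was at 11.5 FPKM, whereas Polr1b and Polr1a, which form the catalytic core, were at 3.56 and 3.12.

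**Figure D1:**
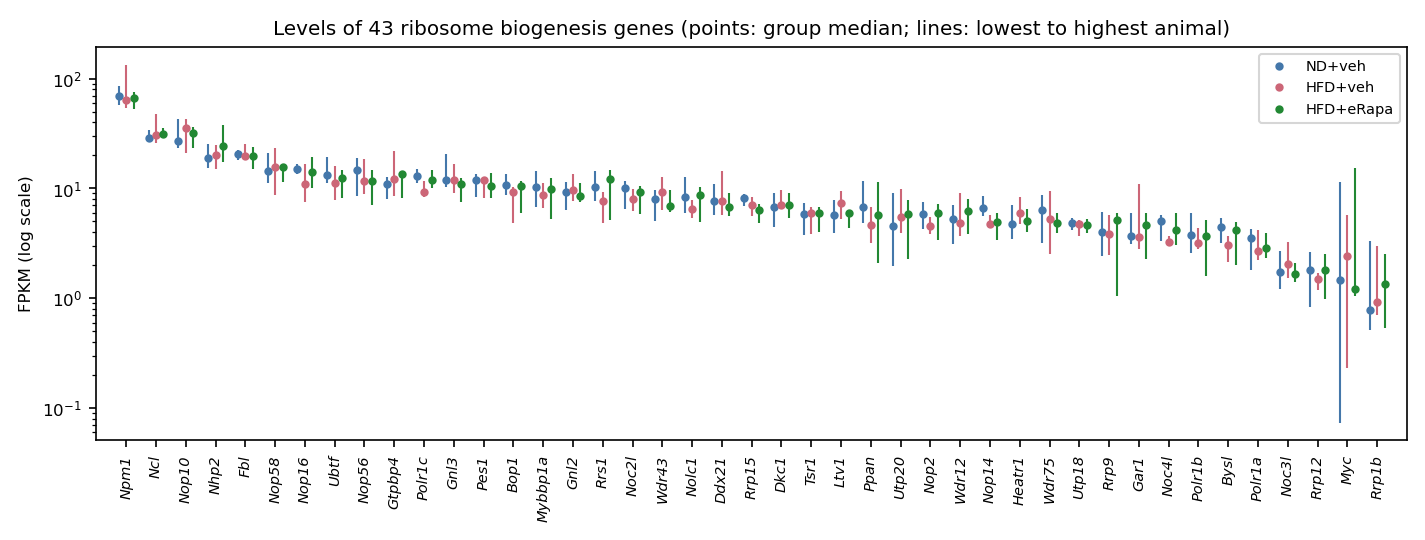
Levels of the 43 genes in FPKM (logarithmic axis), ordered by their median over 24 animals; points are group medians and lines run from the lowest to the highest animal. Npm1 stood highest (68.5 FPKM) and Rrp1b lowest (1.02), and the range of Myc was by far the widest on this scale.

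Between HFD+veh and ND+veh, 5 of the 43 genes were lower and none was higher by edgeR's quasi-likelihood test (Benjamini-Hochberg adjusted p under 0.05, termed called). The genes were Noc4l, Nop14, Bysl, Nolc1 and Nop16, whose products act in small subunit assembly (the first 3), as a snoRNP chaperone and in large subunit assembly. The called share was 11.6% lower and 0% higher, beside 9.86% lower and 16.0% higher among all 13847 genes tested, where 25.9% were called in either direction. The 43 genes had a median estimate of -0.08 on the log2 scale, with 17 estimates above and 26 below zero, and the median of all genes tested was 0.05. At an unadjusted p under 0.05 there were 1 higher and 9 lower, and DESeq2 and limma voom each called 5 lower and 0 higher. The median absolute log2 fold change was 0.21 for the 43 genes and 0.32 for all genes tested, which were not matched to them for expression level. For none of the 43 did the animals of both groups fail to overlap, beside 2.44% of all genes.

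Noc4l and Nop14 encode partners that bind each other in the precursor of the small subunit. Noc4l (chr5:110648418-110653417 in mm10, minus strand) ran from 7.70 to 12.7 CPM in ND+veh, with a median of 9.59, and from 6.20 to 7.79 in HFD+veh, with a median of 6.70. In 6 of 7 HFD+veh animals the level was below that of the lowest ND+veh animal, and only the highest of the 7 overlapped. The log2 fold change was -0.49 (SE 0.116, edgeR adjusted p = 0.00525).
Nop14 (chr5:34638536-34660148, minus strand) ran from 16.5 to 21.3 CPM in ND+veh, with a median of 18.8, and from 11.5 to 17.3 in HFD+veh, with a median of 15.0. All 7 HFD+veh animals were below the ND+veh median, and 5 of them were below the whole ND+veh range. Its log2 fold change was -0.36 (SE 0.096, edgeR adjusted p = 0.0106). The exons of Nop14 overlap those of an antisense gene, Gm15522, and of Bysl those of Ccnd3, and whether the counting used strand is not stated.

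Bysl (chr17:47599331-47611492, minus strand) encodes bystin, which is needed for late maturation of the small subunit. Its level ran from 13.5 to 22 CPM in ND+veh, with a median of 17.3, and from 8.01 to 16.5 in HFD+veh, with a median of 11.6, and 5 of 7 HFD+veh animals were below all ND+veh animals. Its fitted log2 fold change was -0.49 (SE 0.158, edgeR adjusted p = 0.0259).
Nolc1 (chr19:46075863-46085530, plus strand) encodes Nopp140, which chaperones snoRNPs. It ran from 19.4 to 41.6 CPM in ND+veh, with a median of 25.4, and from 16.4 to 24.5 in HFD+veh, with a median of 19.2. Every HFD+veh animal was below the ND+veh median, although the groups overlapped, and the log2 fold change was -0.42 (SE 0.151, edgeR adjusted p = 0.0446).
Nop16 (chr13:54584185-54590090, minus strand), a large subunit factor, ran from 15.9 to 22.9 CPM in ND+veh, with a median of 19.6, and from 10.1 to 23.1 in HFD+veh, with a median of 13.8. Of the 7 HFD+veh animals 5 were below the ND+veh range, while a single one was above it. The log2 fold change was -0.42 (SE 0.154, edgeR adjusted p = 0.0459).
Nolc1 and Nop16 were close to the threshold, and without single libraries they were called in 13 and 8 of 24 fits. Noc4l, Nop14 and Bysl were called in all 24. Under the 14 alternatives other than leaving out 1 library, Nop14 was called in 12, Noc4l in 11 and Bysl in 10. Nop16 was called in 8 and Nolc1 in 3 of the 14. Across fits that left out 1 library each, 3 to 8 of the 43 genes were called; the count was 3 without any one of ND+veh replicates 1, 2, 3 and 5, HFD+veh replicates 3 and 5, and HFD+eRapa replicates 1, 6 and 7, and 8 without HFD+veh replicate 7.

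In HFD+eRapa against HFD+veh, 8 of the 43 genes were higher and none was lower. They comprised Noc4l, Bysl, Nolc1 and Nop16 again, with the large subunit factors Rrs1 and Nop2, the H/ACA protein Nhp2 and the polymerase subunit Polr1c. The called share was 18.6% higher and 0% lower, beside 10.9% higher and 21.1% lower among all genes tested, where 32.0% were called in either direction. The median estimate was 0.09 on the log2 scale for the 43 genes and -0.04 for all genes tested, 26 estimates were above and 17 below zero, and 11 genes, all higher, had an unadjusted p under 0.05. DESeq2 and limma voom each called 8 higher and 0 lower. The median absolute log2 fold change was 0.18, beside 0.31 for all genes, and no gene had groups without overlap, beside 2.59% of all genes. Both comparisons use the same HFD+veh animals, so the values of a gene in them are set side by side and were not combined. With libraries scaled by their totals alone 3 genes were called (Nolc1, Nop16 and Rrs1).

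Noc4l ran from 7.27 to 11.6 CPM in HFD+eRapa, with a median of 8.83, and 8 of 9 animals were above the highest HFD+veh animal. Its log2 fold change was 0.43 (SE 0.113, edgeR adjusted p = 0.00616), beside -0.06 against ND+veh.
Nolc1 ran from 18.8 to 35.8 CPM, with a median of 29.3, and again 8 of 9 HFD+eRapa animals were above all HFD+veh animals. The log2 fold change was 0.50 (SE 0.148, edgeR adjusted p = 0.0120).
Bysl ran from 10.01 to 21.2 CPM, with a median of 17.9, and Nop16 from 15.7 to 27.5, with a median of 18.8. For Bysl 6 of 9 animals were above the HFD+veh range, and for Nop16 2 of 9 were, although all 9 were above the HFD+veh median. The log2 fold changes were 0.48 for Bysl (SE 0.154, edgeR adjusted p = 0.0197) and 0.43 for Nop16 (SE 0.151, edgeR adjusted p = 0.0322).

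Rrs1 (chr1:9545408-9547455, plus strand, a single exon) encodes a factor that brings the 5S ribonucleoprotein into the large subunit. Its level ran from 16.2 to 23.6 CPM in ND+veh, with a median of 19.6, from 9.15 to 20.2 in HFD+veh, with a median of 15.0, and from 12.5 to 33.1 in HFD+eRapa, with a median of 25.1. Of the 9 HFD+eRapa animals 6 were above every HFD+veh animal, and the same number were above every ND+veh animal. The log2 fold change against HFD+veh, 0.59 (SE 0.171, edgeR adjusted p = 0.0110), was the highest of the called genes, and that of HFD+veh against ND+veh was -0.42 (edgeR adjusted p = 0.0772).
Nop2 (chr6:125131909-125144753, plus strand), a methyltransferase of large subunit ribosomal RNA and the gene whose E-box is printed above, ran from 12.2 to 20.8 CPM in ND+veh, with a median of 15.8. The range was 9.99 to 15.9 in HFD+veh, with a median of 12.8, and 11.3 to 22.2 in HFD+eRapa, with a median of 16.2. In 6 of 9 HFD+eRapa animals the level was above the HFD+veh range, and the log2 fold change was 0.36 (SE 0.132, edgeR adjusted p = 0.0395). Utp18, the other gene with an upstream E-box and a small subunit factor, had log2 fold changes of -0.03, 0.09 and 0.06 in the 3 comparisons, with edgeR adjusted p of 0.787, 0.383 and 0.682.

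Nhp2 (chr11:51619735-51623714, plus strand) encodes a core protein of the box H/ACA snoRNPs and of telomerase. Its level ran from 13.5 to 23.0 CPM in ND+veh, with a median of 15.7, from 12.3 to 19.8 in HFD+veh, with a median of 16.1, and from 15.0 to 34.8 in HFD+eRapa, with a median of 20.8. HFD+veh and ND+veh covered much the same range, and 6 of 9 HFD+eRapa animals were above all HFD+veh animals. The log2 fold changes were 0.00 for HFD+veh against ND+veh (edgeR adjusted p = 0.992) and 0.44 for HFD+eRapa against HFD+veh (SE 0.151, edgeR adjusted p = 0.0280).
The 4 genes that were called in all 24 fits without 1 library were Noc4l, Nolc1, Bysl and Rrs1. Nhp2 was called in 21 of them, Polr1c and Nop16 in 19 each, and Nop2 in 16. The number of genes called was 4 to 11 across those fits, with 4 without HFD+eRapa replicate 5 and 4 without replicate 8 of that group. Under the 14 alternatives other than leaving out 1 library, Nolc1 was called in 11, and Noc4l and Nop16 in 10 each. Rrs1 and Nhp2 were called in 9 each, Bysl in 8, Polr1c in 6 and Nop2 in 5 of the 14.

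**Figure D2:**
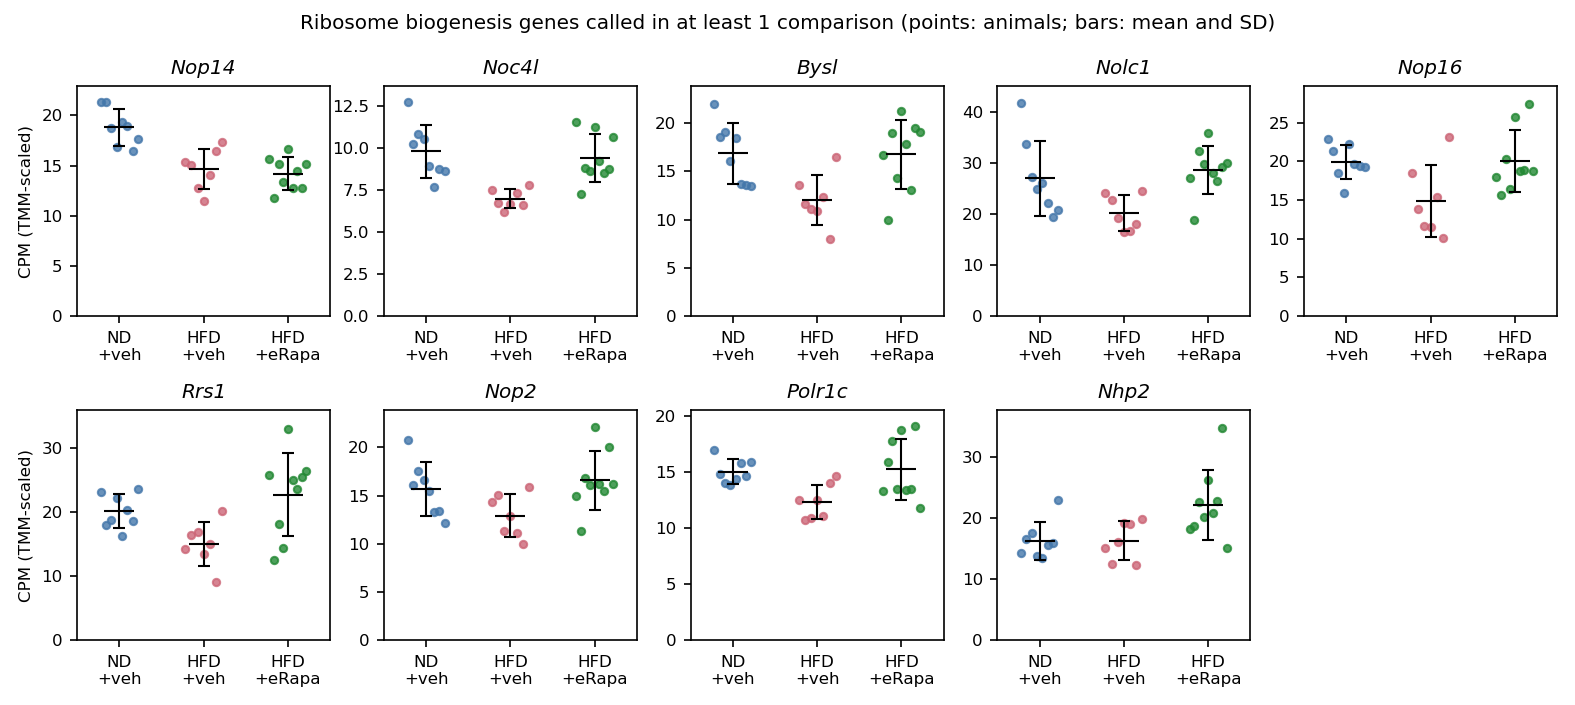
Expression in CPM of the 9 genes called in at least 1 comparison, 1 point per animal, with the mean and SD of each group (ND+veh n = 8, HFD+veh n = 7, HFD+eRapa n = 9). Noc4l was below the lowest ND+veh animal in 6 of 7 HFD+veh animals, Nop14 was low in both high-fat groups, and Nhp2 was high in HFD+eRapa alone by its group median.

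Between HFD+eRapa and ND+veh, 1 gene was higher and 1 lower, each 2.33% of the 43, beside 6.93% higher and 6.54% lower among all genes tested and 13.5% in either direction. On the log2 scale the median estimate was 0.02 for the 43 genes and -0.03 for all genes, the median absolute value was 0.07 beside 0.22, and 4 genes had an unadjusted p under 0.05. No gene had groups without overlap, beside 3.37% of all genes. Nop14 ran from 11.8 to 16.7 CPM in HFD+eRapa, with a median of 14.5, and 8 of 9 animals were below every ND+veh animal. Its log2 fold change was -0.41 against ND+veh (SE 0.090, edgeR adjusted p = 0.00328) and -0.04 against HFD+veh, with a 95% interval from -0.23 to 0.14. Nop14 was called against ND+veh under every alternative setting and without every single library. Nhp2 was higher by 0.45 on the log2 scale (SE 0.145, edgeR adjusted p = 0.0424). It was called in 11 of 24 fits without 1 library and under 10 of the 14 other alternatives.

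The RNA polymerase I genes were called once in 12 tests, beside 25.9%, 32.0% and 13.5% of all genes tested in the 3 comparisons. Polr1c (chr17:46243920-46248054, minus strand) ran from 13.8 to 17.0 CPM in ND+veh, with a median of 14.7, from 10.7 to 14.6 in HFD+veh, with a median of 12.4, and from 11.8 to 19.1 in HFD+eRapa, with a median of 13.5. All 7 HFD+veh animals were below the ND+veh median and 5 were below the ND+veh range, but the adjusted p was just above the threshold (log2 fold change -0.29, SE 0.107, edgeR adjusted p = 0.0510). HFD+eRapa was higher than HFD+veh by 0.30 on the log2 scale (SE 0.105, edgeR adjusted p = 0.0288), with 8 of 9 animals above the HFD+veh median. The HFD+eRapa animals were split, 3 above the whole ND+veh range and 5 below it.
Polr1b ran from 11.5 to 21.8 CPM in ND+veh, with a median of 14.9, from 10.8 to 16.0 in HFD+veh, with a median of 11.1, and from 8.44 to 20.8 in HFD+eRapa, with a median of 16.5. The groups overlapped, and the log2 fold changes of -0.29 and 0.32 had edgeR adjusted p of 0.172 and 0.113.
Polr1a, the largest subunit, ran from 13.0 to 25.7 CPM in ND+veh, from 15.2 to 24.8 in HFD+veh and from 14.6 to 21.5 in HFD+eRapa, with medians of 19.8, 18.0 and 18.9. Its log2 fold changes were -0.06, with a 95% interval from -0.32 to 0.19, and -0.02, with an interval from -0.27 to 0.23, which is smaller than the spread between animals.
Ubtf, the factor that holds ribosomal DNA in an active state, ran from 43.3 to 62.2 CPM in ND+veh, from 26.1 to 56.6 in HFD+veh and from 38.5 to 56.1 in HFD+eRapa, with medians of 48.8, 41.9 and 48.3. In HFD+veh 5 of 7 animals were below the ND+veh range, yet the log2 fold changes of -0.24 and 0.22 did not pass (edgeR adjusted p = 0.153 and 0.181).

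Myc (chr15:61985391-61990374, plus strand) was the most variable of the 43 genes. It ran from 0.170 to 22.2 CPM in ND+veh, with a median of 3.4, from 0.522 to 9.13 in HFD+veh, with a median of 5.32, and from 2.45 to 35.3 in HFD+eRapa, with a median of 3.05. Single animals made the upper ends: ND+veh replicate 4 (22.2 CPM, next 11.9) and HFD+eRapa replicate 1 (35.3 CPM, next 9.34). The log2 fold changes were -0.48 (SE 0.756, 95% interval from -1.96 to 1.00), 0.72 (SE 0.743, interval from -0.73 to 2.18) and 0.24 (SE 0.705), with edgeR adjusted p of 0.664, 0.486 and 0.882. Both intervals reach from a decrease to an increase. In the animals with the highest Myc, the median log2 deviation of the 43 genes from their own means was 0.03 (ND+veh replicate 4) and -0.04 (HFD+eRapa replicate 1). It was highest in ND+veh replicate 1 (0.25), where Myc was at 0.170 CPM, and in HFD+eRapa replicate 5 (0.24), where Myc was at 3.18 CPM. These are values of single animals, and a relation between Myc and the 43 genes over all animals was not tested.

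The abundant nucleolar proteins and the box C/D snoRNP proteins were not called in any comparison by edgeR, DESeq2 or limma voom, and none of the 8 had an unadjusted p under 0.05. Fbl ran from 17.5 to 23.3 CPM in ND+veh, from 18.7 to 26.0 in HFD+veh and from 18.8 to 27.2 in HFD+eRapa, with medians of 21.8, 22 and 20.8, and its log2 fold changes were 0.07 and -0.02, with 95% intervals from -0.11 to 0.26 and from -0.20 to 0.16.
Ncl ran from 111.7 to 168.9 CPM in ND+veh, from 131 to 224.6 in HFD+veh and from 134.4 to 190.4 in HFD+eRapa, with medians of 133.3, 141.3 and 149.4. All 9 HFD+eRapa animals were above the ND+veh median, but the log2 fold change of 0.20 did not pass (edgeR adjusted p = 0.264).
Npm1 ran from 72.9 to 127.3 CPM in ND+veh, from 67.7 to 182.7 in HFD+veh and from 66.9 to 125.7 in HFD+eRapa, with medians of 90.9, 93.8 and 91.9, and log2 fold changes of 0.11, -0.10 and 0.01.
The highest HFD+veh values of Ncl and Npm1 both came from replicate 6, which has one of the strong GC trends described above. For the helicase Ddx21 and for Mybbp1a the log2 fold changes were 0.10 and -0.23 in HFD+veh against ND+veh, and -0.11 and 0.19 in HFD+eRapa against HFD+veh.

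**Figure D3:**
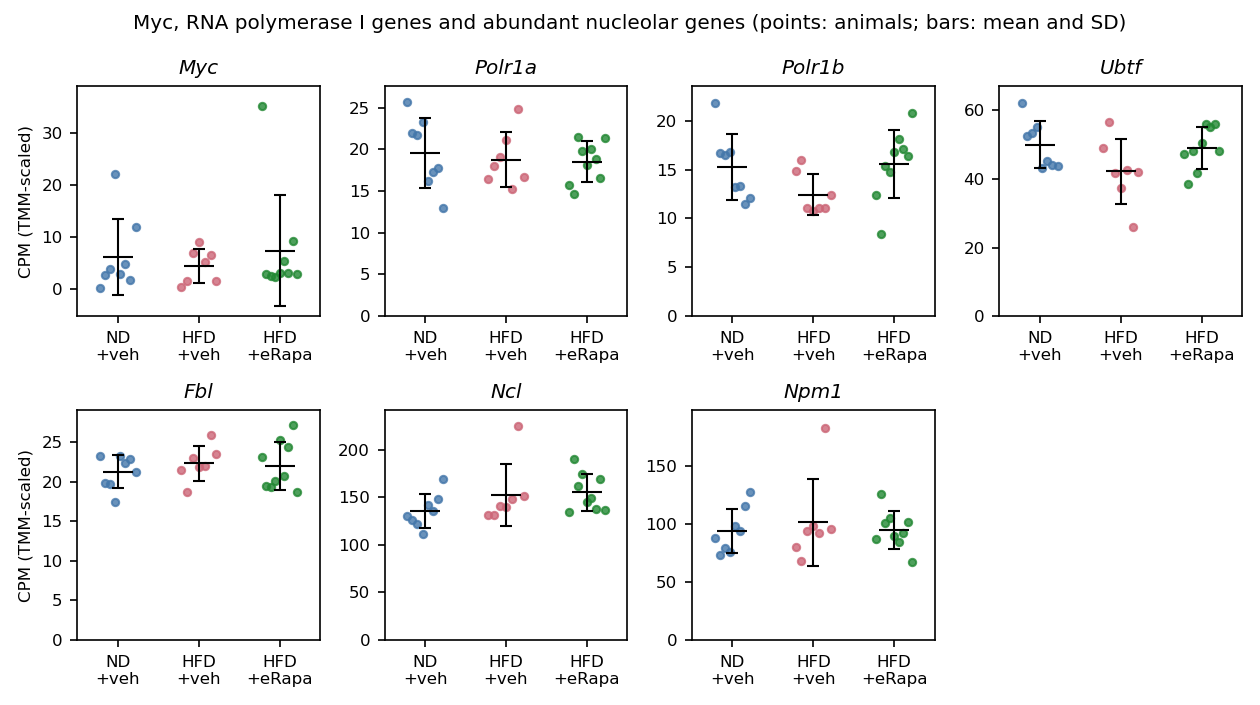
Expression in CPM of Myc, 3 RNA polymerase I genes, Fbl, Ncl and Npm1, 1 point per animal, with the mean and SD of each group. Single animals reached 22.2 and 35.3 CPM of Myc, and the groups overlapped for all 7 genes.

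The remaining genes are given by role. Among the box C/D proteins, the core proteins Nop56 and Nop58 and the U3 protein Rrp9 had log2 fold changes of -0.21, 0.00 and -0.08 in HFD+veh against ND+veh and of 0.04, 0.06 and 0.21 in HFD+eRapa against HFD+veh. Among the box H/ACA proteins, the pseudouridine synthase Dkc1 and its partners Gar1 and Nop10 had values of 0.12, -0.28 and 0.12, and of -0.07, 0.26 and 0.05.
In what follows "with the diet" stands for HFD+veh against ND+veh and "with rapamycin" for HFD+eRapa against HFD+veh. The small subunit factors had estimates of both signs. Noc4l, Nop14 and Bysl were called lower with the diet. Heatr1, Utp20, Wdr43 and Wdr75 had positive estimates of 0.32, 0.30, 0.27 and 0.16, none of which passed. Their estimates in HFD+eRapa against HFD+veh were -0.20, -0.14, -0.18 and -0.19. For each of them the highest HFD+veh animal was replicate 6, which has a strong GC trend. It stood at 47.73, 43.01, 36.3 and 26.4 CPM, beside next highest values of 30.21, 42.52, 28.36 and 17.03. Whether the GC trend had a part in these values was not tested. The late small subunit factors Rrp12, Ltv1 and Tsr1 had values of -0.28, 0.09 and 0.00, and of 0.24, -0.12 and 0.17. The 11 small subunit factors had a median of 0.00 with the diet, with 3 called lower, and of -0.04 with rapamycin, with 2 called higher. Of all genes tested, 9.86% were lower with the diet and 10.9% higher with rapamycin.
The 14 large subunit factors had a median of -0.12 with the diet, with 1 called lower, and of 0.13 with rapamycin, with 3 called higher. The same shares of all genes, 9.86% and 10.9%, stand beside these counts. Pes1, Bop1 and Wdr12, which form the PeBoW complex, had estimates of both signs: their log2 fold changes with the diet were 0.10, -0.36 and 0.15, and with rapamycin -0.08, 0.30 and 0.12, and Bop1 was close to the threshold with the diet (edgeR adjusted p = 0.0576). Ppan had -0.46 and 0.35 (edgeR adjusted p = 0.129 and 0.220). The values of Rrp1b, Rrp15, Gnl2, Gnl3, Gtpbp4, Noc2l and Noc3l ran from -0.19 to 0.26 with the diet and from -0.24 to 0.25 with rapamycin, and none passed. Gnl3, Gnl2 and Gtpbp4 encode nucleolar GTPases, and Noc2l and Noc3l are relatives of Noc4l that act on the large subunit.

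**Figure D4:**
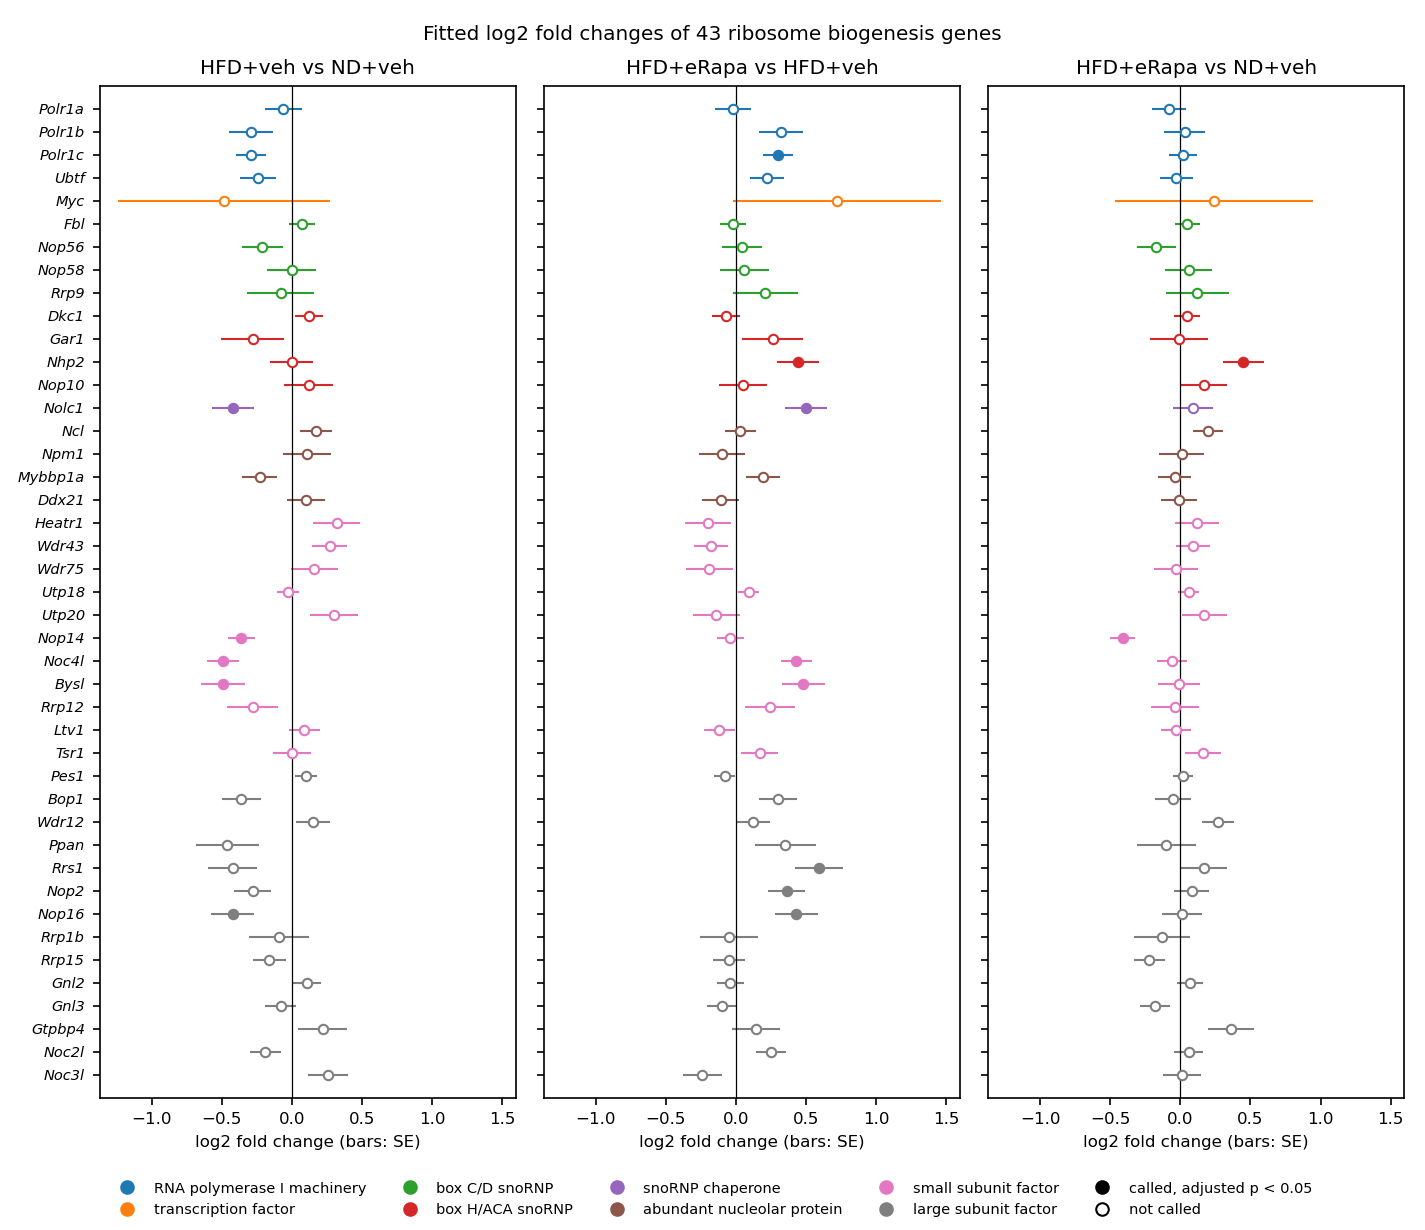
Fitted log2 fold changes of the 43 genes with their SE (bars), coloured by role, in the 3 comparisons; filled points were called (adjusted p under 0.05). The called genes lay below zero in HFD+veh against ND+veh (5 genes) and above zero in HFD+eRapa against HFD+veh (8 genes), and in HFD+eRapa against ND+veh only Nop14 and Nhp2 were called.

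Introns of these genes carry snoRNA genes that guide the same modifications. In the Gencode M21 annotation, 23 snoRNA genes lay within 8 of the 43 genes: Nop56 held 5, Nop58 4, Ncl, Wdr43 and Gnl3 3 each, Tsr1 and Ppan 2 each, and Dkc1 1. None of the 8 host genes was called in any comparison by edgeR, DESeq2 or limma voom, beside 25.9%, 32.0% and 13.5% of all genes by edgeR. The only unadjusted p under 0.05 among the hosts was that of Wdr43 in HFD+veh against ND+veh. Their log2 fold changes ran from -0.46 to 0.27 in HFD+veh against ND+veh, from -0.18 to 0.35 in HFD+eRapa against HFD+veh and from -0.18 to 0.20 in HFD+eRapa against ND+veh. Mature snoRNAs lack a poly(A) tail and were not assessed here. For 19 of the 43 genes, exons overlap a gene on the other strand.

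Within the machinery, fold changes followed the GC content of the transcript. GC content of the longest transcript ran from 40.4% to 59.9% over the 43 genes, with a median of 50.3%, beside 49.3% for all genes. Spearman's rho between log2 fold change and GC was -0.72 over the 43 genes and -0.30 over all 13833 genes with a value in HFD+veh against ND+veh, 0.65 and 0.18 in HFD+eRapa against HFD+veh, and -0.23 and -0.19 in HFD+eRapa against ND+veh. These are descriptions over genes of the same libraries, which are not independent, and the first 2 comparisons share the HFD+veh animals. The 22 genes with GC at or above 50.3% had a median log2 fold change of -0.28 with the diet and 0.30 with rapamycin, and held 4 of the 5 and 8 of the 8 called genes. The 21 genes below had medians of 0.11 and -0.05 and held only Nop14 in the first comparison and none in the second. Exonic length went the other way, with rho of 0.41 and -0.40 over the 43 genes.
When each library's GC trend was removed, 3 genes were called lower with the diet (Bysl, Nop14 and Nop16) and 6 higher with rapamycin (Bysl, Noc4l, Nolc1, Nop16, Rrs1 and Wdr12). When the 3 libraries with a strong GC trend were left out, 4 were lower (Bysl, Noc4l, Nop14 and Polr1c) and 10 higher, the 8 called genes with Bop1 and Polr1b. Both alternatives were added after the data were seen.

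**Figure D5:**
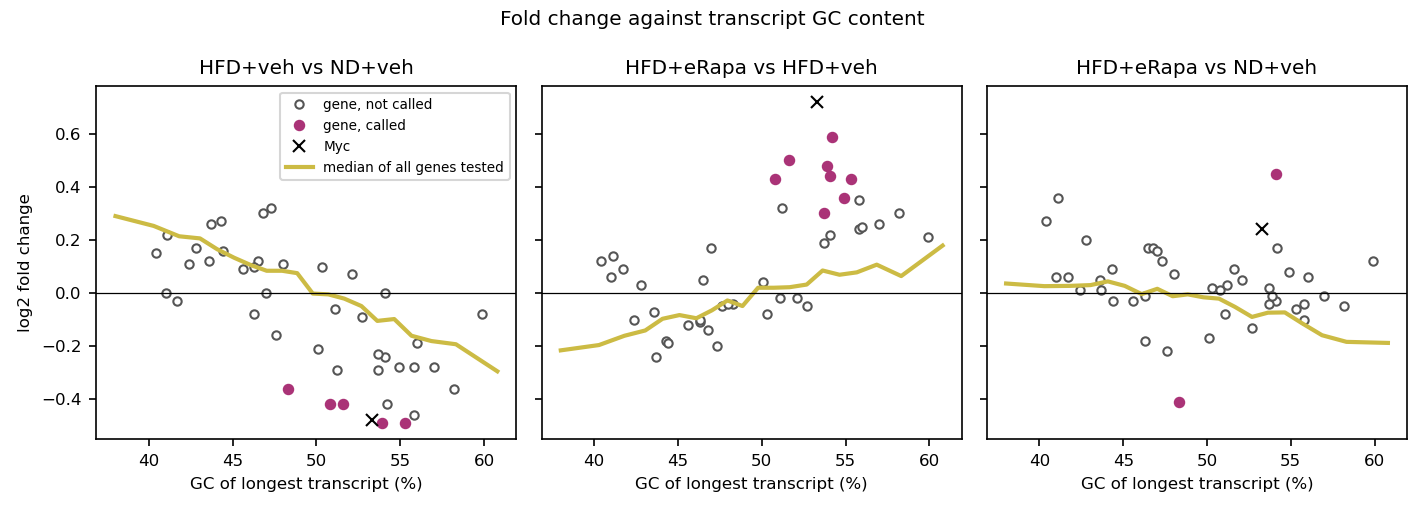
Log2 fold change against GC content of the longest transcript (%) for the 43 genes, with called genes filled and Myc as a cross; the line joins medians of all genes tested in 20 bins of GC content. Of the 22 genes with GC at or above the median, 19 lay below zero in HFD+veh against ND+veh (rho -0.72 over the 43 genes). In HFD+eRapa against HFD+veh 18 of the 22 lay above zero (rho 0.65).

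Markers of immune cells moved with the same comparisons. A score averaging 21 of 32 listed macrophage, lymphocyte and neutrophil genes had a median of -0.37 in ND+veh (from -1.19 to 0.67), 1.27 in HFD+veh (from -0.54 to 1.64) and -0.15 in HFD+eRapa (from -1.46 to 0.55), in units of SD over animals. With this score as a covariate, none of the 43 genes was called by edgeR in HFD+veh against ND+veh or in HFD+eRapa against HFD+veh, with 6 and 4 genes at an unadjusted p under 0.05. The log2 fold change of Noc4l was then -0.35 and 0.29, that of Bysl -0.21 and 0.18, that of Nolc1 -0.14 and 0.23, and that of Nop14 with the diet -0.29. Because the score differs between the groups, it cannot be told apart from the group in these fits. With a score of endothelial, stellate cell and cholangiocyte genes, Noc4l alone was called in the first comparison and Myc alone in the second. The part of other cells in the results was not tested beyond these fits.

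The other genes of the pathway were taken from lists by role: 120 symbols, of which 110 were in the tables and all of these were tested. In HFD+veh against ND+veh 6 were higher (5.45%) and 12 lower (10.9%), beside 16.0% and 9.86% of all genes tested, with a median log2 fold change of -0.06. Wdr74, a large subunit factor, fell by 0.59 on the log2 scale (SE 0.137, edgeR adjusted p = 0.00511), the helicase gene Ddx49 by 0.52 (SE 0.123, adjusted p = 0.00548) and the helicase gene Ddx56 by 0.38 (SE 0.117, adjusted p = 0.0222). The kinase gene Riok2 rose by 0.49 (SE 0.107, adjusted p = 0.00302), Taf1b, a subunit of the RNA polymerase I selectivity factor, by 0.84 (SE 0.227, adjusted p = 0.0117) and Utp15 by 0.57 (SE 0.155, adjusted p = 0.0124).
In HFD+eRapa against HFD+veh 12 were higher (10.9%) and 4 lower (3.64%), beside 10.9% and 21.1% of all genes, with a median of 0.06, but with libraries scaled by their totals alone 1 was higher and 5 lower. Rcl1 rose by 0.46 (SE 0.116, edgeR adjusted p = 0.00525), Nob1, the endonuclease that cuts the end of 18S ribosomal RNA, by 0.43 (SE 0.111, adjusted p = 0.00595) and Mrto4 by 0.32 (SE 0.096, adjusted p = 0.0132). Tex10 fell by 0.57 (SE 0.167, adjusted p = 0.0117), Utp15 by 0.45 (SE 0.151, adjusted p = 0.0264) and Rpf2, which acts with Rrs1 on the 5S particle, by 0.56 (SE 0.197, adjusted p = 0.0314).
In HFD+eRapa against ND+veh 2 were higher (1.82%) and 1 lower (0.909%), beside 6.93% and 6.54% of all genes, namely Pno1 (0.41, SE 0.105, edgeR adjusted p = 0.00906), Utp6 (0.33, SE 0.109, adjusted p = 0.0421) and Wdr74 (-0.46, SE 0.128, adjusted p = 0.0163).

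The products that the machinery assembles were compared as a list. Of 78 cytosolic ribosomal protein genes 7 (8.97%, beside 9.86% of all genes) were lower and none higher in HFD+veh against ND+veh (median -0.06), 5 (6.41%, beside 10.9%) were higher and none lower in HFD+eRapa against HFD+veh (median 0.08), and none was called in HFD+eRapa against ND+veh (median 0.00), by edgeR. At an unadjusted p under 0.05 the counts were 12 lower, 11 higher and 0, DESeq2 called 7 lower, 7 higher and 0, and limma voom 7 lower, 4 higher and 0. Of 11 RNA polymerase III genes, Polr3d was lower with the diet (-0.63, edgeR adjusted p = 0.0220) and higher with rapamycin (0.57, adjusted p = 0.0253), and Crcp was higher with the diet (0.61, adjusted p = 0.00595). Crcp was also higher in HFD+eRapa against ND+veh (0.46, SE 0.14, edgeR adjusted p = 0.0287). Each call was 9.09% of that list. Among all genes 9.86% were lower and 16.0% higher with the diet, 10.9% higher with rapamycin and 6.93% higher in HFD+eRapa against ND+veh. Among 12 genes of the Myc network, 1 was higher and 3 were lower with the diet, 1 was higher and 4 were lower with rapamycin, and 1 was higher and 1 lower in HFD+eRapa against ND+veh. The Myc relative Mycn had a log2 fold change of -3.06 with the diet (SE 0.682, edgeR adjusted p = 0.00365). With rapamycin it was 1.73 (SE 0.662, edgeR adjusted p = 0.0474). Mlxip was higher with the diet (0.96) and lower with rapamycin (-1.40), and Mlxipl (-1.25) and Mxd4 (-0.39) were lower with the diet. Max, the partner of Myc at the E-box, Mga and Mxd1 were lower with rapamycin, with values of -0.50, -0.48 and -0.51. Mycl was higher (0.65) and Mxd4 lower (-0.34) in HFD+eRapa against ND+veh. The genes of this paragraph were named after their values were seen.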

How the data were processed

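RNA of 24 hepatocyte libraries was analysed from tables that the authors deposited. Reads had been aligned by the authors with STAR in 2 passes to mm10 with Gencode M23 and filtered with SAMtools 1.1.0. The deposited counts are raw reads per gene that the authors obtained from HTSeq 0.11.2, and the setting for strand is not given in the sources used here. The deposited FPKM values were made by the authors with Cufflinks.

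Counts were tested in R 4.3.3 with edgeR 4.0.16 (filterByExpr, TMM, robust glmQLFit, glmQLFTest) in 1 fit of all 24 libraries with 3 groups and no covariates, with Benjamini-Hochberg adjustment over all 13847 genes tested. SE was derived from the fitted log2 fold change and its F statistic (estimate over root F, in absolute value), and 95% intervals are the estimate with a normal quantile of that SE. CPM uses TMM-scaled library sizes, and log2 CPM a prior count of 2. FPKM was used for levels and, with a pseudocount of 0.1, for limma 3.58.1, where fold changes of low genes are understated. Alternatives were DESeq2 1.42.0, limma voom, other scalings and filters (none, or 10 counts in every library), only the groups compared, covariates, a replicate block and removal of each library.

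Groups and replicate numbers came from the labels. Each library is a separate animal as far as the labels say, and p-values measure the spread between these libraries. Chi-square per degree of freedom was at least 11.3 for all pairs within a group, so none was the same library sequenced again. That the libraries are separate animals rests on the labels. Precision is limited by the 7 to 9 animals per group and by the 17.7 to 25.9 M counts of a library. Gene positions, GC content and snoRNAs came from Gencode M21, which uses the assembly of mm10 and holds 55154 of the 55421 identifiers once version suffixes are dropped, and promoter windows from RefSeq. Fits were tested on simulated counts. The genes and lists were chosen with earlier results of these data known. Values by animal are given for Myc, Polr1a, Polr1b, Polr1c, Ubtf, Fbl, Ncl and Npm1 and for the 8 called genes with the smallest p in each comparison, and from the other pathway genes the 3 with the smallest p in each direction.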

Additional observations from a re-analysis of the deposited data

Results flagged for a closer look

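For each of the 43 genes and for 5 measures per library, the highest and the lowest animal of each group was compared with the rest by Dixon's test at the 95% level. Of 144 groups of values 14 held an animal far from the others, where about 7.2 are reached by chance at 1 in 20. HFD+veh replicate 6 accounted for 8 of them. It stood at 225 CPM for Ncl (other HFD+veh animals 131 to 151), 183 for Npm1 (67.7 to 98.3), 69.5 for Ddx21 (33 to 42.2), 47.7 for Heatr1 (21.1 to 30.2), 24.5 for Wdr12 (11.7 to 16.7), 68.6 for Gtpbp4 (29.3 to 45.5) and 14.3 for Noc3l (7.25 to 10). Its Spearman's rho with transcript GC was -0.442, where the other HFD+veh animals lay from -0.136 to 0.0708, and whether the GC trend had a part in the high values was not tested. Without this animal 4 of the 43 genes were called in HFD+veh against ND+veh and 7 in HFD+eRapa against HFD+veh.

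The other 6 values came from 5 animals. ND+veh replicate 8 was at 23.0 CPM of Nhp2 (others 13.5 to 17.5) and had a rho with GC of -0.142 (others 0.156 to 0.290). HFD+veh replicate 5 was at 17.5 CPM of Gnl3 (others 21.4 to 24.3), and HFD+veh replicate 3 had the lowest depth of its group, 19.8 M counts (others 21.3 to 22). HFD+eRapa replicate 1 was at 35.3 CPM of Myc (others 2.45 to 9.34), and HFD+eRapa replicate 5 at 20.6 CPM of Ppan (others 4.25 to 11.5).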

How the results depend on the processing

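The median estimate of the 43 genes kept its direction in the first 2 comparisons under every alternative, at -0.11 to -0.02 and 0.01 to 0.18 when no single library was removed, with 0.01 by library totals. In HFD+eRapa against ND+veh it was 0.02, -0.07 by library totals and -0.06 with limma on FPKM. It ran from -0.14 to -0.04, from 0.07 to 0.14 and from 0.01 to 0.04 without single libraries. Counts moved more, and the cause was not tested. In HFD+veh against ND+veh (5 of the 43 genes and 18 other pathway genes called), the 43 genes gave 3 with no filter, 0 with the immune score, 1 with the other marker score and 3 with the GC correction. The other pathway genes gave 8 with no filter, 8 with only the groups compared, 2 with the immune score and 3 with the other marker score. In HFD+eRapa against HFD+veh (8 and 16), the 43 genes gave 3 by library totals, 0 and 1 with the scores and 2 with limma on FPKM. The other genes gave 6 by library totals, 10 with no filter, 9 with only the groups compared, 0 and 0 with the scores and 6 with limma on FPKM. In HFD+eRapa against ND+veh (2 and 3), the 43 genes gave 1 with voom, 1 by library totals and 1 with no filter. The other genes gave 1 with no filter, 5 with only the groups compared, 5 and 8 with the scores, 5 with limma on FPKM, 7 with the GC correction and 6 without the libraries of strong GC trend. Without single libraries the 43 genes gave 3 to 8, 4 to 11 and 1 to 2, and the other genes 12 to 23, 7 to 23 and 2 to 10. The correlation of same-numbered animals was over 0.1 in 5 of 7, 2 of 7 and 2 of 8 pairs (mean r 0.316, -0.245 and -0.203), so it held for most pairs of ND+veh and HFD+veh but not for all, and 2, 0 and 0 animals correlated best with their own number. The numbers were therefore not taken to pair the animals. The replicate block gave 2 (Noc4l and Nop14, with Nop16, Bysl and Nolc1 at an edgeR adjusted p of 0.0505, 0.0522 and 0.0814) and 9 calls in the first comparison and 4 and 5 in the second, and the replicate block with GC correction 2 and 9, then 4 and 8. No call changed sign. A log2 fold change had an SE of 0.07 to 0.76 over the 43 genes, and a change well above its SE could still miss the threshold. Polr1c in HFD+veh against ND+veh, at -0.29 with an SE of 0.107, had an edgeR adjusted p of 0.051. A gene that was not called, Myc above all, is therefore not shown to be unchanged.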
